A study of Parasteatoda tepidariorum with 12 samples.

Results

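Embryos begin development with messenger RNA laid down by the mother, and the proteins that store, translate, localize and degrade that RNA are themselves encoded by maternal transcripts. Gene models of the spider *Parasteatoda tepidariorum* belonged to this set when their deposited description named a Piwi or Argonaute protein, Dicer, a Tudor protein, Maelstrom, Pumilio, Smaug, Bicaudal, Staufen, a CCR4-NOT subunit, a decapping protein, a cytoplasmic polyadenylation element-binding protein (CPEB) or a poly(A) enzyme. The rule uses no measured value. The search found 64 of 27990 gene models, of which 18756 carried a description, and the 64 belonged to 57 NCBI genes. No description held the words vasa, nanos or deadenyl. By role, 22 members belonged to the piRNA and small RNA pathway, 5 were germline RNA regulators, 7 RNA localization factors, 3 CPEBs, 14 deadenylation factors, 3 decapping factors and 10 enzymes of poly(A) addition.

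Maternal messages are commonly held with a short poly(A) tail in the egg, and CPEB together with a GLD-2 type polymerase can lengthen that tail and turn translation on. Smaug, Pumilio, Bicaudal C and microRNAs can recruit the CCR4-NOT deadenylase, whose action is followed by decapping and decay. Piwi proteins and their piRNAs silence transposons, and with Tudor proteins and Maelstrom they occur in granules of germline cells. The RNA measured here was captured by its poly(A) tail, so loss of a transcript and shortening of its tail cannot be told apart, and in pooled whole embryos fewer cells of a type and less RNA per cell cannot be told apart.

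Pools of whole embryos were taken at stage 2 (11 h), at stage 3 (20 h) and early in stage 5 (31 h), timed from egg laying, in untreated embryos and in embryos after parental RNA interference (pRNAi) against *fuchi* (g26874), a GATA-like gene. Replicate 1 and replicate 2 are 2 females. Each gave untreated egg sacs, labelled day 0. After injection of *fuchi* double-stranded RNA each gave egg sacs labelled day 19 (replicate 1) or day 18 (replicate 2), which makes 12 libraries in 6 groups of 2. Per the study, the untreated sacs were laid 2 days ahead of the first injection and the others 18 to 19 days after it. The untreated sacs were laid before the injections, so pRNAi cannot be told apart from injection itself or from the age of the female. With 2 females per group, the p-values for stage and treatment measure the spread between these females alone.

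Library totals ran from 5662766 to 8857990 counts, so that 3 counts correspond to 0.339 to 0.530 CPM (counts in proportion to the library total). *fuchi* transcripts remained at 15.0% to 44.4% of the untreated level of the same female. Of 8 markers of endoderm, abembryonic cells and germ-disc pattern, 7 were lower in both pRNAi libraries than in both untreated ones at early stage 5. Their summed level was 2761 to 2979 CPM in untreated embryos, mostly g17950 and g12453, and 356 to 471 CPM in pRNAi embryos. The exception, *Pt-sog*, was at 118 and 91.8 CPM untreated and 228 and 89.8 CPM after pRNAi. All 8 stand on the study's lists of genes changed by *fuchi* pRNAi in these same libraries, so they are no independent check. The counts of 7 NCBI genes were split over 2 gene models each (14 members), 3 members overlapped another gene model, and such counts are uncertain. Of the 64 members, 63 passed the filter over all 12 libraries, and only the argonaute-2 model g12795, with 0 to 3 counts per library, did not. CPM values below are scaled by the TMM factors of the 12 libraries and given for replicate 1, then replicate 2, and they compare a gene with itself, not with other genes.

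The members made up 1.25% to 1.29% of all counts in untreated stage 2 embryos, and 1.05% to 1.28%, then 0.740% to 0.920%, in the later ones. From stage 2 to stage 3 of untreated embryos, 12 of 63 members fell and 9 rose, at an adjusted p under 0.01 and at least a 2-fold change. Over all 13642 gene models tested, 16.2% fell and 17.7% rose, and the median log2 fold change was 0.08 both for the members and for all gene models. From stage 3 to early stage 5, 16 of 63 members fell and 3 rose, whereas 11.0% of all gene models fell and 7.90% rose. The median in this step was -0.61 for the members and -0.03 for all gene models. When libraries were scaled by their totals alone, the median of all gene models shifted to -0.14 in the first step and to -0.31 in the second, the median of the members turned to -0.12 in the first step, and the members' calls became 7 higher and 14 lower, then 2 higher and 23 lower. With limma on log2(RPKM + 1) the first step had 6 members higher and 14 lower.

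**Figure D1:**
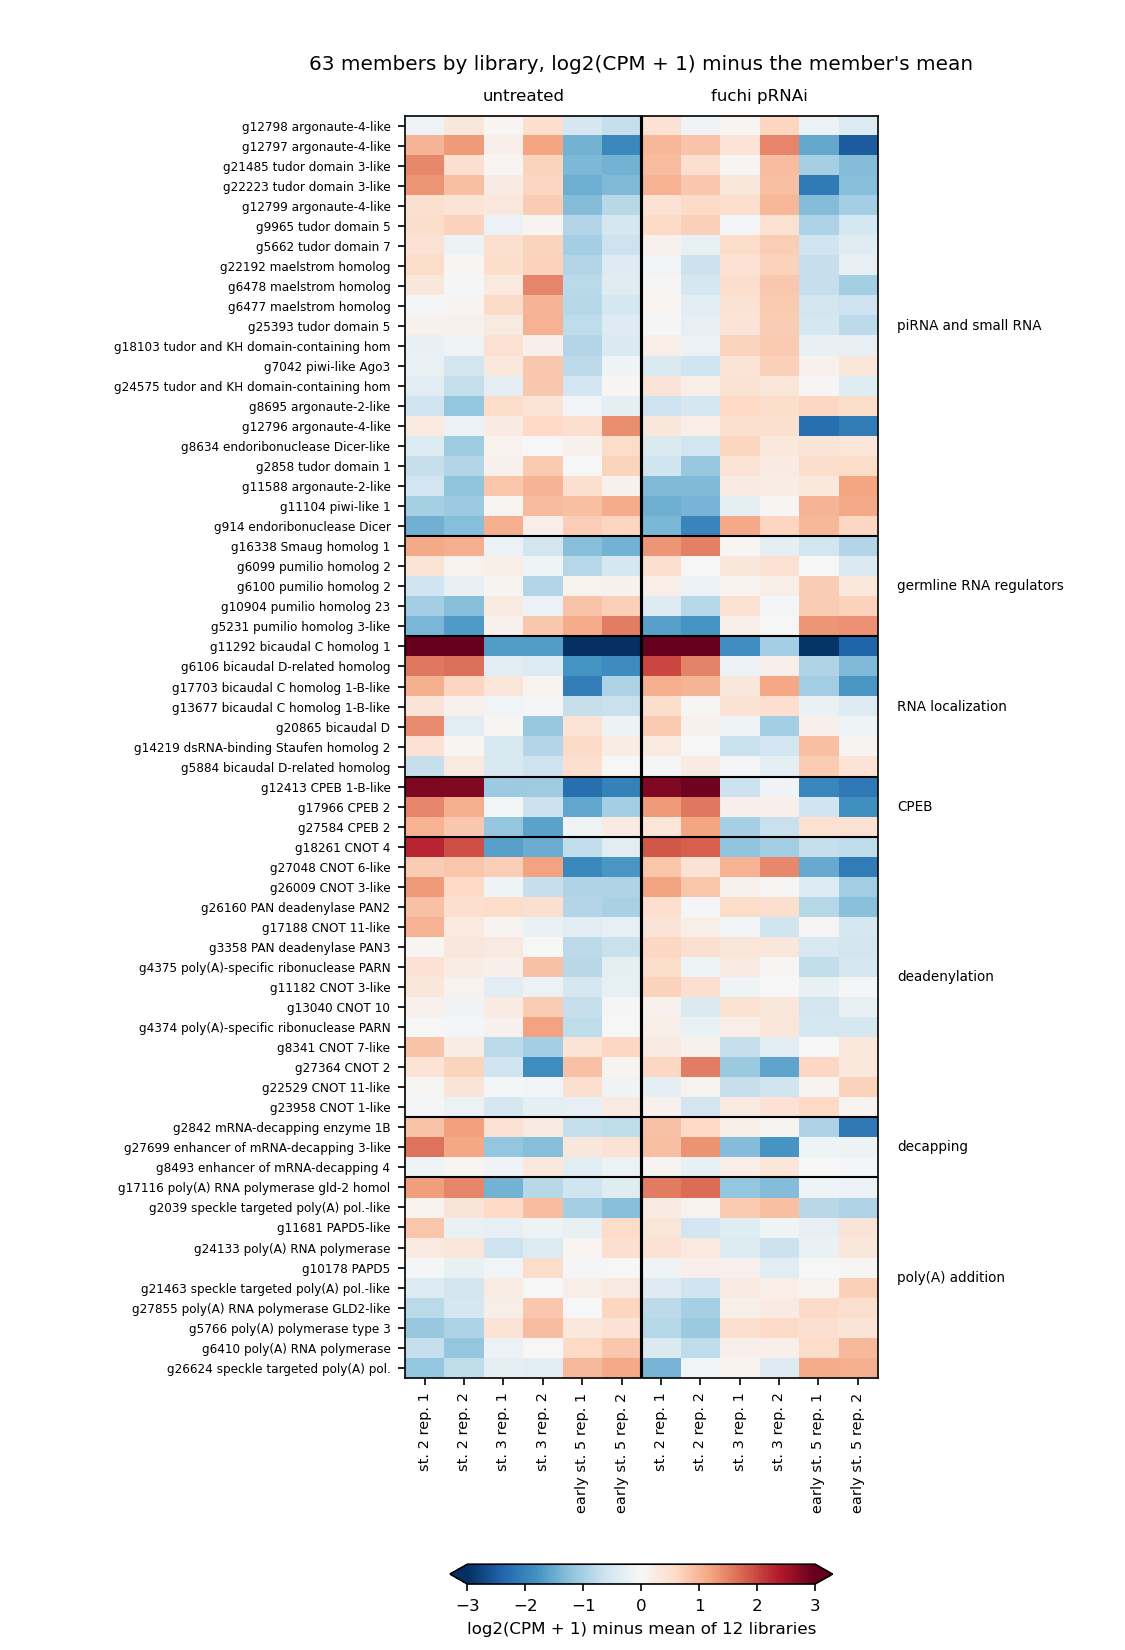
Heat map of the 63 tested members (rows, grouped by role) in the 12 libraries (columns). Colour gives log2(CPM + 1) minus the member's mean over the 12 libraries, red above and blue below it. The rows of bicaudal C (g11292), CPEB1 (g12413) and CNOT4 (g18261) are deep red at stage 2 and blue afterwards in both treatments, and g12796 is dark blue only in the pRNAi libraries of early stage 5.

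The deepest fall of any member in the first step was that of bicaudal C (g11292, scaffold 1291, 106536 to 136504, Ptep_1.0), a KH-domain protein that in *Drosophila* binds maternal mRNA and recruits CCR4-NOT. Untreated stage 2 embryos held 1106 and 1078 CPM, which gave way to 11.0 and 11.0 CPM at stage 3 and to 2.13 and 1.89 CPM by early stage 5. The groups did not overlap, and the libraries of a stage lay close together while the stages lay far apart. The log2 fold change was -6.63 ± 0.40 (SE, adjusted p = 3.02e-07) from stage 2 to stage 3 and -2.44 ± 0.43 (adjusted p = 0.000996) from there to early stage 5. In RPKM, which divides by gene length, it stood first of the 64 members at stage 2 (325 ± 1.03, SD, n = 2), 58th at stage 3 (2.65 ± 0.0703) and 61st at early stage 5. The second step lost its call when either untreated library of early stage 5 was left out.

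The CPEB genes fell with it. CPEB1 (g12413, scaffold 1482, 209136 to 237970), which binds the cytoplasmic polyadenylation element, went from 1114 and 1101 CPM to 74.5 and 75.2 CPM between the first stages and reached 32.1 and 38.4 CPM by early stage 5. It was the second most abundant member per length at stage 2, and its level dropped at each stage without overlap. Its log2 fold change was -3.89 ± 0.25 (adjusted p = 4.79e-07) and then -1.09 ± 0.23 (adjusted p = 0.00367), the latter not called without any one of its 4 libraries. The CPEB2 model g27584 fell by 3.14 on the log2 scale from 9.31 and 7.71 CPM to 1.23 and 0.648 CPM (SE 0.54, adjusted p = 0.000498). The CPEB2 model g17966 fell by 1.70, from 40.6 and 30.7 CPM to 13.3 and 8.59 CPM (SE 0.42, adjusted p = 0.00515). All 3 CPEB members therefore passed the test as lower at stage 3, with summed levels of 1164 and 1140 CPM before and 89.0 and 84.4 CPM after. Of all gene models, 16.2% were lower in this step.

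Among the other localization factors, the bicaudal D-related gene g6106, a relative of a dynein adaptor, fell in both steps. Its values over the successive stages were 199.97 and 208 CPM, 51.8 and 49.4 CPM, and 18.4 and 17.0 CPM, with no overlap. The changes were -2.01 ± 0.26 (adjusted p = 5.58e-05) and -1.51 ± 0.26 (adjusted p = 0.000929). Staufen (g14219), a double-stranded RNA-binding protein of mRNA localization, had 428 and 333 CPM first, then 230.4 and 173 CPM, then 474 and 372 CPM. The stage 3 libraries were the lowest, but neither step of Staufen was called in untreated embryos. A second bicaudal C gene, split over g17703 and g13677, changed by -0.67 and -0.33 in the first step and was not called in either. Of the 7 localization factors, 2 fell and 0 rose in each step. Over all gene models 16.2% and then 11.0% fell, and 17.7% and then 7.90% rose. With only 7 members, these counts cannot set the role apart from those shares. With DESeq2's size factors in edgeR, however, Staufen was called higher in the second step (1.13, adjusted p = 0.00886), as was CPEB2 g27584 (2.21, adjusted p = 0.00862).

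Deadenylation factors moved in both directions. From stage 2 to stage 3, 4 of 14 fell and none rose, and from stage 3 to early stage 5, 2 fell and 2 rose. The shares over all gene models were 16.2% lower and 17.7% higher in the first step and 11.0% lower and 7.90% higher in the second. The largest fall in the first step was that of CNOT4 (g18261, scaffold 2794, 224545 to 265904), a ubiquitin ligase that associates with CCR4-NOT. It went from 365 and 285 CPM to 23.2 and 25.6 CPM and then to 43.4 and 58.4 CPM, so that stage 3 was lowest in both females. Its log2 fold change was -3.73 ± 0.25 (adjusted p = 6.28e-07) and then 1.06 ± 0.23 (adjusted p = 0.00444). CNOT7 (g8341), a catalytic deadenylase, had a like course, from 89.1 and 57.1 to 27.2 and 23.5 and back to 64.7 and 75.6 CPM. It changed by -1.53 ± 0.28 (adjusted p = 0.000767) and by 1.47 ± 0.28 (adjusted p = 0.00186). CNOT2 (g27364), a structural subunit, was at 61.6 and 74.2 CPM, then at 30.2 and 11.99 CPM, a change of -1.68 ± 0.45 (adjusted p = 0.0077) with replicates that differed more than in CNOT4. Its return to 86.1 and 48.8 CPM was not called. The CNOT3 model g26009 fell by 1.39 on the log2 scale in the first step (SE 0.33, adjusted p = 0.00406), from 70.8 and 43.6 to 26.2 and 17.5 CPM. Among these calls of CNOT4, CNOT7, CNOT2 and CNOT3, only the fall of CNOT4 held in every alternative. After *fuchi* pRNAi neither step of CNOT7 was called.

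Other deadenylases kept their stage 2 level to stage 3 within the test and fell later. CNOT6 (g27048, scaffold 190, 295716 to 493250), the CCR4-type catalytic subunit, had 324 and 338 CPM first, then 317 and 442 CPM, then 49.3 and 56.3 CPM. The last pair lay far under the other 4 values, and the change of the second step was -2.85 ± 0.29 (adjusted p = 1.96e-05), which held in all 14 alternatives. PAN2 (g26160), the catalytic subunit of the PAN deadenylase, was at 129 and 122 CPM at stage 3 and fell to 47.2 and 44.2 CPM, by 1.46 on the log2 scale (SE 0.26, adjusted p = 0.00103). Its partner PAN3 (g3358) went from 102 and 83.9 to 49.0 and 53.1 CPM and was not called, since its change of -0.87 was under 2-fold. The CNOT1 model g23958, the scaffold of the complex, ranged from 473 to 808 CPM over the 6 untreated libraries, and neither step was called.

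**Figure D2:**
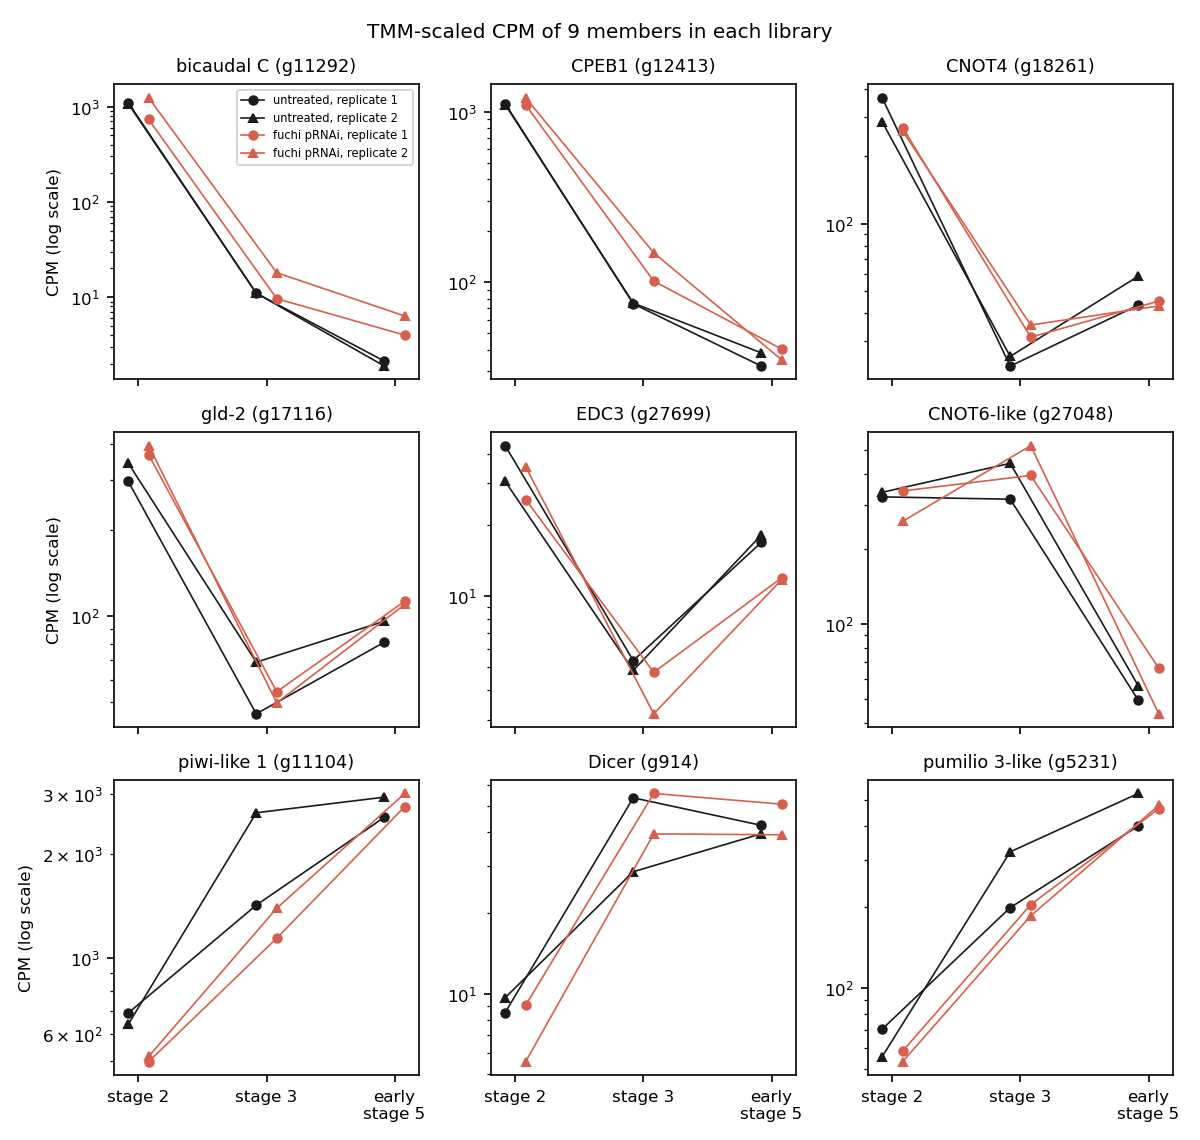
TMM-scaled CPM (log axis) of 9 members at the 3 stages, each line 1 female (circles replicate 1, triangles replicate 2), black untreated and red *fuchi* pRNAi. Bicaudal C, CPEB1, CNOT4, gld-2 and EDC3 drop between stage 2 and stage 3, CNOT6-like drops between stage 3 and early stage 5, and piwi-like 1, Dicer and pumilio 3-like are higher after stage 2.

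Of the 3 decapping members, EDC3 (g27699), an enhancer of decapping, had 43.3 and 30.6 CPM first, then 5.35 and 4.86 CPM, then 16.9 and 18.1 CPM. Stage 3 was the lowest in both females. The changes were -2.85 ± 0.34 (adjusted p = 3.5e-05) and 1.77 ± 0.34 (adjusted p = 0.00171). The fall held in every alternative, and the rise did not. EDC4 (g8493), the most abundant decapping member, stayed between 356 and 551 CPM in untreated libraries with no call. The third, the decapping enzyme 1B (g2842), was called only over the whole interval.

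Of the 10 enzymes of poly(A) addition, 2 rose and 1 fell in the first step and 1 fell in the second. Over all gene models 17.7% rose and 16.2% fell in the first step, and 11.0% fell in the second. The gld-2 homolog g17116 (scaffold 2421, 24929 to 49824), a cytoplasmic poly(A) polymerase first known from *Caenorhabditis elegans*, went from 296 and 343 CPM at stage 2 to 45.5 and 69.0 CPM at stage 3. Both later values lay far below both earlier ones, a change of -2.48 ± 0.25 (adjusted p = 8.65e-06), and the level at early stage 5 was 81.1 and 96.0 CPM. A second GLD2-like gene, g27855, went the other way, from 35.9 and 44.7 to 72.6 and 113 CPM, and rose by 1.20 ± 0.29 (adjusted p = 0.0043). Its call was lost in 7 of 14 alternatives. The poly(A) polymerase g5766, described as type 3 and of the canonical nuclear kind, rose from 280 and 324 CPM to 818 and 1174 CPM, by 1.72 ± 0.23 (adjusted p = 7.5e-05). It was the second most abundant member per length from stage 3 on. The speckle targeted polymerase g2039 was at 112 and 141 CPM at stage 3 and fell to 35.8 and 29.9 CPM, by 1.94 on the log2 scale (SE 0.24, adjusted p = 7.43e-05).

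Smaug (g16338, scaffold 2207, 272712 to 353524), which in *Drosophila* directs CCR4-NOT to maternal mRNA, fell in both steps. Its level was 241 and 232 CPM, then 96.3 and 73.7 CPM, then 44.0 and 40.1 CPM, with no overlap between stages. The changes were -1.47 ± 0.23 (adjusted p = 0.000252) and -1.02 ± 0.23 (adjusted p = 0.00555), and 6 of 14 alternatives did not call the second. The pumilio 3-like gene g5231 (scaffold 630, 1966 to 33211) rose from 70.3 and 55.5 CPM to 199 and 320 CPM, by 2.04 ± 0.27 (adjusted p = 6.58e-05), and stood at 400 and 528 CPM at early stage 5. The pumilio 23 gene g10904 went from 16.2 and 13.5 to 41.3 and 29.8 CPM and rose by 1.26 ± 0.29 (adjusted p = 0.00342). Relatives of these 2 in yeast and plants act on ribosomal RNA in the nucleolus rather than on maternal mRNA. The pumilio 2 gene, the relative of the classical translational repressor, was split over g6099 and g6100. From stage 3 on, the former went from 322 and 260 to 156 and 201 CPM and the latter from 178 and 89.7 to 179 and 183 CPM. Neither step of either model was called.

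No member of the piRNA and small RNA pathway fell from stage 2 to stage 3, and 5 of 21 rose (23.8%), against 16.2% of all gene models lower and 17.7% higher. Dicer (g914, scaffold 280, 337536 to 379205), which cuts double-stranded RNA into small RNAs, went from 8.51 and 9.67 CPM to 53.8 and 28.5 CPM, a change of 2.18 ± 0.36 (adjusted p = 0.000383). Both argonaute-2-like genes, whose relatives carry small interfering RNAs in insects, rose as well. The first, g11588, went from 166 and 107 to 441 and 504 CPM (1.79 ± 0.30, adjusted p = 0.000401). The second, g8695, went from 248 and 167 to 555 and 505 CPM (1.35 ± 0.23, adjusted p = 0.000381). The tudor domain-containing gene 1 (g2858), a partner of Piwi proteins in other animals, rose from 379 and 334 to 678 and 1060 CPM, by 1.29 ± 0.29 (adjusted p = 0.00312). This last rise was lost in 5 of 14 alternatives. A second Dicer gene, g8634, went from 28.8 and 17.9 to 42.0 and 38.4 CPM and was not called in this step.

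Piwi-like 1 (g11104, scaffold 1260, 108596 to 147081), an effector of piRNA silencing, had 690 and 639 CPM first, then 1422 and 2643 CPM, then 2564 and 2934 CPM. Every later library exceeded both stage 2 libraries, though the stage 3 libraries differed from each other by more than those of the other stages. The rise of the first step was 1.61 ± 0.27 (adjusted p = 0.000428). Its counts were 6.06% and 6.20% of all member counts at stage 2 and 28.0% and 27.4% at early stage 5, and per length it was the most abundant member at stage 3 (592 ± 235 RPKM, SD, n = 2) and early stage 5 (686 ± 108 RPKM). In the same embryos bicaudal C, CPEB1 and CNOT4 together went from 0.292% and 0.298% of all counts at stage 2 to 0.0114% and 0.0108% at stage 3.

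From stage 3 to early stage 5, 9 of the 21 tested members of the piRNA and small RNA role fell and none rose, where 11.0% of all gene models fell and 7.90% rose. The 9 include argonaute-4-like genes and TDRD3, and 2 NCBI genes stand in the count with 2 models each. The summed level of the role was first 3680 and 3139 CPM, then 5454 and 7889 CPM, then 4874 and 5854 CPM. Of this sum, piwi-like 1 alone held 690 and 639, then 1422 and 2643, then 2564 and 2934 CPM. The sum therefore does not stand for the course of most members. The argonaute-4-like gene g12799 (scaffold 1543, 280335 to 306464) was at 397 and 379, then 357 and 482, then 114 and 159 CPM. It fell by 1.62 on the log2 scale (SE 0.26, adjusted p = 0.000576) and did so in all 14 alternatives. Its neighbour g12797 fell by 2.48 (SE 0.46, adjusted p = 0.00144), from 56.2 and 117 to 18.4 and 12.5 CPM. Maelstrom was represented by 3 models, of which g6477 and g6478 belong to 1 NCBI gene, and all of them fell. The model g6477 went from 171 and 233 CPM to 62.7 and 78.8 CPM, a change of -1.52 ± 0.25 (adjusted p = 0.000688). The other maelstrom models changed by -1.58 ± 0.36 (g6478, adjusted p = 0.00561) and -1.28 ± 0.32 (g22192, adjusted p = 0.00896).

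Among Tudor genes, TDRD7 (g5662), a component of germ granules in vertebrates, went from 517 and 584 to 181 and 238 CPM (-1.39 ± 0.26, adjusted p = 0.00137). TDRD5 (g25393) went from 230 and 395 to 113 and 146 CPM (-1.27 ± 0.28, adjusted p = 0.0039). TDRD3, a reader of methylated arginine that is not known as a piRNA factor, was split over 2 models on different scaffolds. Its model g22223 fell by 1.92 (SE 0.34, adjusted p = 0.00113) and its model g21485 by 2.08 (SE 0.48, adjusted p = 0.00602). The Piwi protein Ago3 (g7042) went from 480 and 675 CPM to 221 and 351 CPM and was not called (adjusted p = 0.0132). The untreated stage 3 library of replicate 2 held the higher value for 17 of the 21 tested members of this role, and the 19 member calls of this step became 8 without it. They became 16 without the stage 3 library of replicate 1, 8 without the early stage 5 library of replicate 1 and 6 without that of replicate 2.

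Over the whole interval from stage 2 to early stage 5, 18 of 63 members were lower and 11 higher in untreated embryos, where 23.2% of all gene models were lower and 22.8% higher. Bicaudal C changed by -9.07 ± 0.46, CPEB1 by -4.98 ± 0.27 and the bicaudal D-related g6106 by -3.52 ± 0.28. At the other end stood pumilio 3-like (2.88 ± 0.27), the speckle targeted poly(A) polymerase g26624 (2.17 ± 0.43), Dicer (2.17 ± 0.36) and piwi-like 1 (2.05 ± 0.28). Scaling by library totals alone turned the 18 lower and 11 higher members into 30 lower and 6 higher. Counted by pattern, 4 members fell in both steps (bicaudal C, CPEB1, g6106 and Smaug), 5 fell in the first step alone, 12 in the second alone, 3 fell and then rose (CNOT4, CNOT7 and EDC3), 9 rose in the first step alone, and 30 had no call in either step. No member rose in both steps of untreated embryos. These patterns were not counted over all gene models, so none of them can be called particular to the members.

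A further 82 gene models of related RNA pathways were followed, listed by their descriptions, and 75 of them were tested. From stage 2 to stage 3 of untreated embryos 29 rose and 11 fell, where 17.7% of all gene models rose and 16.2% fell. The exosome and 3' to 5' decay list had 8 of 13 higher and none lower, led by RRP41 (g3822, 2.06 ± 0.23, adjusted p = 2.2e-05) and the exonuclease RRP44 (g18644, 1.73 ± 0.22, adjusted p = 5.13e-05). Of 7 partners of small RNA production, 6 rose, among them the Dicer partner tarbp2 (g27707, 2.62 ± 0.29), exportin-5 (g11810, 2.47 ± 0.37) and the piRNA helicase spindle-E (g20480, 2.16 ± 0.35). Of 8 models listed as germ plasm partners, 5 rose, including mago nashi (g27849, 1.45 ± 0.25) and the arginine methyltransferase PRMT5 (g12245, 1.61 ± 0.32). The others were a PRMT5-like model (g24237) and the methylosome proteins pICln (g26916) and 50-like (g27245). None of these descriptions names the germ plasm, and whether they act there was not tested. With library totals alone the higher counts of the exosome, small RNA and germ plasm lists were 6, 3 and 2, and again none was lower. After *fuchi* pRNAi the same step had 5, 3 and 2 higher in these lists and none lower, and the difference between the treatments in these counts was not tested.

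Other lists held calls in both directions in that step. Of 23 RNA-binding repressors and stabilizers, 8 fell and 4 rose, and of 10 genes of 5' to 3' decay and decapping activation, 3 fell and 1 rose. The median log2 fold change was -0.27 for the first list and -0.09 for the second. The deepest falls were those of LSM14 (g10905, -4.34 ± 0.33, adjusted p = 1.49e-06), a repressor bound to stored mRNA, and of DAZ-like (g7580, -4.31 ± 0.36, adjusted p = 2.73e-06), a germline RNA-binding protein. DAZ-like had 11253 and 7917 counts at first, then 492 and 254, then 42 and 15, a course like that of bicaudal C. The ataxin-2-like gene g17541 changed by -3.89 ± 0.38 and the eIF4E transporter g18867 by -2.63 ± 0.21. From stage 3 to early stage 5, 6 of the 75 rose and 7 fell, near the 7.90% and 11.0% of all gene models.

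**Figure D3:**
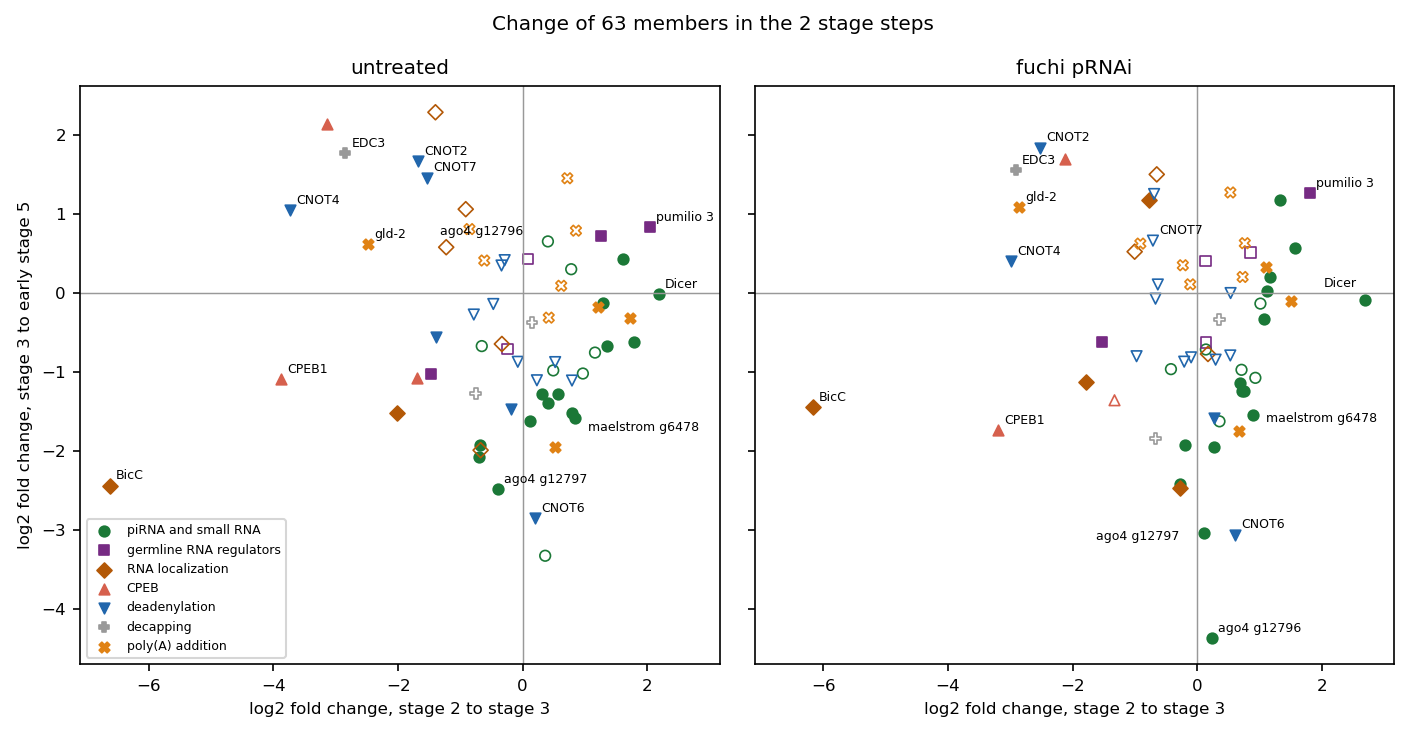
Log2 fold change of the 63 tested members from stage 2 to stage 3 (x axis) against stage 3 to early stage 5 (y axis), in untreated (left) and *fuchi* pRNAi embryos (right), with colour and symbol for the role. Filled symbols were called in at least 1 of the steps. Members at the far left fell first, many members of the piRNA and small RNA role lie at the lower centre, and g12796 lies at 0.66 on the y axis in untreated embryos and at -4.36 in pRNAi embryos.

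Embryos after *fuchi* pRNAi went through most of the same changes. From stage 2 to stage 3, 9 members fell and 9 rose, where 13.1% of all gene models fell and 13.1% rose. Of these, 9 falls and 8 rises were also called in untreated embryos, which are different libraries of the same females. The sign of the change was the same in both treatments for 56 of 63 members and for 88.0% of all gene models. Such agreement was therefore not particular to the members. Bicaudal C went from 734 and 1237 CPM to 9.63 and 18.1 CPM (-6.17 ± 0.39, adjusted p = 6.05e-07), and CPEB1 from 1097 and 1204 to 101 and 149 CPM (-3.20 ± 0.24, adjusted p = 1.96e-06). For CPEB1 both pRNAi values at stage 3 lay above both untreated ones. CNOT4 changed by -2.99 ± 0.24, gld-2 by -2.87 ± 0.25 and EDC3 by -2.91 ± 0.34, and the rises were again led by Dicer (2.70 ± 0.37) and pumilio 3-like (1.80 ± 0.26). The call that pRNAi embryos added was that of Ago3 (g7042, 1.08 ± 0.27, adjusted p = 0.00755), which 7 of 14 alternatives did not make. In untreated embryos its change was 0.97 ± 0.27 (adjusted p = 0.0109), and DESeq2's size factors in edgeR called it there too (1.03, adjusted p = 0.00809). The 18 calls became 12 and 11 without the stage 2 library of replicate 1 or 2, and 13 and 12 without that of stage 3. With limma on log2(RPKM + 1), 5 members were higher and 9 lower.

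From stage 3 to early stage 5, 15 members fell and 6 rose after pRNAi, where 11.5% of all gene models fell and 8.29% rose. Of the 15 falls 13 were shared with untreated embryos, CNOT6 again first (-3.06 ± 0.29, adjusted p = 1.1e-05). The sign of the change was the same in both treatments for 55 of 63 members and for 81.7% of all gene models. Among the rises only EDC3 was shared (1.56 ± 0.34, adjusted p = 0.00387). The others were pumilio 3-like (1.27 ± 0.26), gld-2 (1.09 ± 0.24), piwi-like 1 (1.19 ± 0.27), CNOT2 (1.85 ± 0.45) and Staufen (1.19 ± 0.29). All 6 rises lost their call with library totals alone, where 27 members were lower and 0 higher. The 21 calls became 16 and 8 without the stage 3 library of replicate 1 or 2, and 10 and 9 without that of early stage 5. From stage 2 to early stage 5 after pRNAi, 21 members were lower and 11 higher, with 23.3% of all gene models lower and 20.7% higher. Library totals alone gave 29 lower and 4 higher.

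Compared with untreated embryos of the same stage, few members and few of all gene models were called in *fuchi* pRNAi embryos. At stage 2 edgeR called 0 of 63 members and 0% of all gene models. The *fuchi* gene itself was thus not called there, at 524 and 298 counts untreated and 124 and 47 after pRNAi. The lack of a call therefore does not show that a member was unchanged. No member had an unadjusted p under 0.05, and the likelihood ratio test and DESeq2 called 0 members as well. The smallest p-values belonged to maelstrom g22192 (-0.68 ± 0.32), piwi-like 1 (-0.40 ± 0.20), the tudor and KH domain gene g24575 (1.09 ± 0.56) and PAN2 (-0.47 ± 0.26), each at an adjusted p of 0.983. At stage 3 edgeR called 0 of 62 members and 0.270% of all gene models. Here 4 members had an unadjusted p under 0.05, and again the other 2 tools called 0. Some tests reach that level without any effect, and this count is not set against all gene models. These 4 were CNOT1 g23958 (0.77 ± 0.23, adjusted p = 0.277), argonaute-2-like g11588 (-0.66 ± 0.24, adjusted p = 0.403), CPEB1 (0.76 ± 0.30, adjusted p = 0.444) and piwi-like 1 (-0.66 ± 0.29, adjusted p = 0.515). CNOT1 was at 819 and 914.1 CPM after pRNAi against 473 and 556 CPM untreated, a difference of values that did not pass the test.

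At early stage 5, 1 of 62 members was called, against 3.12% of all gene models, and 6 had an unadjusted p under 0.05. The latter count is likewise not set against all gene models. The called member was the argonaute-4-like gene g12796 (scaffold 1543, 196854 to 224834), whose relatives in other animals load small RNAs. Its untreated libraries had 51 and 81 counts, and its pRNAi libraries 2 and 2, that is 7.76 and 15.3 against 0.285 and 0.453 CPM. Pooled over both females the untreated level was 31.8 times that after pRNAi, with a 95% counting interval of 12.1 to 118 that leaves out variation between females. The fitted log2 fold change was -5.01 ± 0.63 (adjusted p = 0.00177). Without the pRNAi library of replicate 1 it was -4.64 and no longer called (adjusted p = 0.0157), and with limma on log2(RPKM + 1) it was -1.10 (adjusted p = 0.067). The endoderm marker *Pt-GATA4* was at 37.0 and 47.6 CPM in the same untreated libraries and at 0.285 and 0 CPM in the pRNAi libraries, and its part in this result was not tested.

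The gene g12796 had been present earlier in both treatments. It was at 6.51 and 4.44 CPM in untreated and 6.83 and 6.08 CPM in pRNAi embryos at stage 2, and at 6.31 and 8.26 against 7.65 and 7.58 CPM at stage 3. The treatments overlapped at both stages, and only the early stage 5 values after pRNAi stood apart. The change from stage 3 to early stage 5 was -4.36 ± 0.59 after pRNAi (adjusted p = 0.00015) and was not called in untreated embryos. The difference between the treatments in this change was -5.02 ± 0.74 (adjusted p = 0.00796), the only call among 63 members and against 0.286% of all gene models. In the 8 fits that left out 1 library the difference stayed between -5.48 and -4.51, but its adjusted p passed the threshold in only 1 of them. Its neighbours g12797 and g12799, on the same scaffold and strand, took another course. The neighbours g12795 and g12798 had at most 3 and 11 counts in any library, too few to compare. The model g12797 was at 18.4 and 12.5 CPM in untreated and 16.8 and 8.15 CPM in pRNAi embryos of early stage 5, and g12799 at 114 and 159 against 114 and 140 CPM, so both overlapped between treatments after a fall in each. How reads of such neighbouring gene copies were assigned was not tested.

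**Figure D4:**
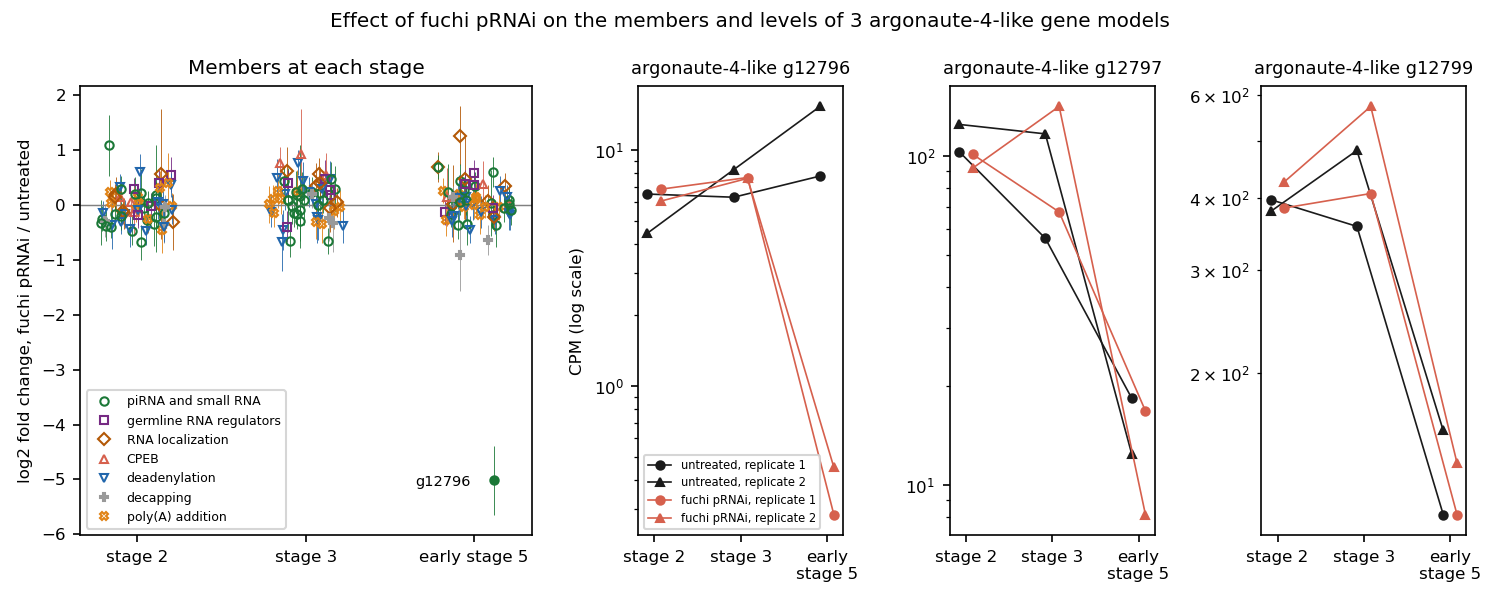
Left, log2 fold change of *fuchi* pRNAi over untreated for the members tested at each stage (points, bars are 1 SE, symbols for the role, filled where called). Right, TMM-scaled CPM (log axis) of 3 neighbouring argonaute-4-like gene models, each line 1 female. Only g12796 lies far from 0, at -5.01 at early stage 5, and g12797 and g12799 drop in both treatments.

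The other 3 members with the smallest p-values at early stage 5 were argonaute-2-like g8695 (0.69 ± 0.22, adjusted p = 0.15), bicaudal D-related g6106 (0.70 ± 0.27, adjusted p = 0.266) and Smaug (0.58 ± 0.24, adjusted p = 0.315). For the change from stage 2 to stage 3, the treatments differed in 0 of 63 members and in 0% of all gene models by edgeR. A single member had an unadjusted p under 0.05, a count again not set against all gene models. The likelihood ratio test and DESeq2 called 0 members. Among the related pathway genes, 1 of 74 was called at early stage 5, against 3.12% of all gene models. This was the mRNA decay activator ZFP36L1 (g3346). Its untreated libraries had 217 and 169 counts, and its pRNAi libraries 714 and 779, a rise of 2.02 ± 0.31 (adjusted p = 0.00581).

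The 2 females differed in 1 member when stage and treatment were held fixed, against 1.88% of all gene models. This was bicaudal D (g20865, scaffold 4256, 28356 to 57241), an adaptor of dynein in mRNA transport. In untreated embryos replicate 1 had 213 CPM and replicate 2 had 62.1 CPM at the first stage, 81.9 and 35.5 CPM at the second and 105 and 71.4 CPM at the last. Replicate 2 was lower in all 6 groups, and the difference was -0.89 ± 0.18 (adjusted p = 0.00792). This test compares these 2 females only, with the libraries of each as replicates. Its p-value does not cover the spread among females.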

How the data were processed

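Directional libraries of poly(A) RNA, each from a pool of whole embryos, were read from a single end (MiSeq), per the study. The authors deposited raw counts per gene model (HTSeq 0.6.1p1, AUGUSTUS models of the Ptep_1.0 assembly) and RPKM values, which scale counts by gene length and by a library total that differs from the summed counts. For these reads, aligner and strand setting are not given in the sources used. Of the 57 NCBI genes, 56 were in the supplied gene table of another assembly, used for names only. Counts were fitted with the quasi-likelihood F test of edgeR 4.0.16 (R 4.3.3) after TMM scaling, with Benjamini-Hochberg adjustment over all gene models tested. Knockdown was fitted on the 4 libraries of a stage (at least 1 CPM in 1 library, adjusted p under 0.01). Stage changes, their difference between treatments and the female term came from fits of all 12 libraries (at least 1 CPM in 2 libraries), stage changes also with a 2-fold minimum. The SE was taken from the fold change and its F statistic. Members were found by description, and members, roles, lists, tests and alternatives were chosen with earlier results of these data known. Named members were those called (up to 12 falls and 8 rises by p), the most abundant of a role and the 4 smallest p of each knockdown comparison. Untreated and pRNAi libraries come in pairs of the same female per the labels, and their deviations from group means correlated with 0.539, 0.451 and 0.383 at the 3 stages. The main fits of knockdown and stage held no term for the female and so left this pairing out. Only the female test and the alternative with a block for the female used it. Replicates were not duplicate deposits, with a mean chi-square of 28.0 to 44.1 between their counts. Intervals and floors of 3 counts cover counting error only. Alternatives used DESeq2 1.42.0, limma 3.58.1 on log2(RPKM + 1) or log2(RPKM + 0.1), other scalings and filters, a block for the female and fits without each library. The scripts were tested on simulated counts.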

Additional observations from a re-analysis of the deposited data

Results flagged for a closer look

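The argonaute-4-like gene g12796 changed differently in the 2 treatments from stage 3 to early stage 5. The difference of the log2 fold changes was -5.02 by the interaction term, where untreated embryos kept the transcript and *fuchi* pRNAi embryos had 2 counts in each library. No group held 4 or more samples, so single libraries were not compared with the others of their group.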

How the results depend on the processing

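The block for the female changed no count of member calls by more than 1.5 times. With this replicate block, 22, 25 and 31 members were called in the untreated steps (stage 2 to 3, stage 3 to early stage 5, and stage 2 to early stage 5), 20, 23 and 32 in the pRNAi steps, and 0, 0 and 1 for knockdown at the 3 stages. No called member reversed its direction under any alternative. Among members without a call signs can turn, and with library totals alone the median of the 5 germline RNA regulators from stage 2 to stage 3 of untreated embryos moved from 0.08 to -0.12. Limma on log2(RPKM + 1) and on log2(RPKM + 0.1) called 0 members for knockdown at early stage 5 and 0 for the difference of the stage 3 to early stage 5 change, in place of 1 each, and the cause was not tested. Leaving out single libraries gave 0 to 1 calls for both of these. It gave 15 to 21, 6 to 16 and 24 to 27 calls in the untreated steps and 11 to 13, 8 to 16 and 25 to 29 in the pRNAi steps, with 0 throughout for knockdown at stage 2 and stage 3 and for the difference of the first step. Calls that held in every alternative numbered 14 of 21, 3 of 19 and 20 of 29 in the untreated steps and 10 of 18, 7 of 21 and 18 of 32 in the pRNAi steps. With 2 females, the loss of 1 library leaves a single sample in a group, which is then assumed to vary like the others. For knockdown the count over all gene models depends on the tool, with 0 (edgeR quasi-likelihood), 4 (likelihood ratio test), 13 (DESeq2), 30 (no filter) and 93 (replicate block) at stage 2, then 36, 141, 129, 208 and 346 at stage 3, and 386, 833, 539, 898 and 986 at early stage 5.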
